A study of Mus musculus with 18 samples.

Results

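Pentraxin 3 (Ptx3), interleukin 6 (Il6) and 8 further genes of the acute-phase response were followed in inguinal white fat (iWAT), epididymal white fat (eWAT) and brown fat (BAT) of the mouse. The 8 others are the serum amyloid A genes Saa1, Saa2 and Saa3, lipocalin 2 (Lcn2), haptoglobin (Hp), orosomucoid 1 (Orm1), the serine protease inhibitor Serpina3n and the feedback inhibitor Socs3. The set was a list of 10 genes, chosen with earlier results of these data known. Each was looked up by its symbol in all 18 sample files. Both kinds of file share 45151 symbols. Ptx3 was selected on its levels in these same libraries, by its large difference between the depots, so its values are given as a description with no test.

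The 18 RNA-seq libraries came from wild type male mice of the C57BL/6J strain, aged 16 weeks and fed regular chow, with 6 libraries per depot. For iWAT and eWAT, the fat was digested with collagenase and the floating mature adipocytes were used. BAT was frozen as whole tissue, although 1 label field calls these samples adipocytes. In a comparison with BAT, the depot cannot be told apart from the way the sample was prepared. In such bulk samples, fewer cells of a type and less RNA per cell cannot be told apart either. The labels give each sample a number within its depot without saying what it stands for or that each sample is a separate mouse, so p-values measure the spread between these samples. The totals of reads behind the RPKM values (reads per kilobase of the row, divided by the read total of the sample) were 22929576 to 32141048 in iWAT, 26607733 to 34048018 in eWAT and 26706786 to 34512470 in BAT. The files of iWAT and BAT hold 1 row per gene with merged exons, whereas those of eWAT hold 1 row per transcript, of which the most-read was used. The kind of row thus follows the depot.

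The labelled depots were checked with marker lists. The summed RPKM of 6 adipocyte markers was 5662 to 7033 in BAT, against 10993 to 16764 in iWAT and 9355 to 17294 in eWAT. That of 6 brown adipocyte markers was 2858 to 3571 in BAT, against 79.1 to 124 in iWAT and 11.97 to 25.4 in eWAT. Some samples stood apart. The eWAT samples 14 and 15 held RNA of all 7 epididymis markers, with sums of 104 and 92.9, against 3.66 in eWAT sample 13 and at most 0.0284 in every other sample. The eWAT sample 15 also had the highest sum of 11 macrophage markers, at 2618 against 187 to 608 in the other eWAT samples. Without eWAT samples 14 and 15, the log2 fold change of Lcn2 was the only member value that moved by over 1.5 times. It is given with and without them, and the difference between the white depots in the list of IL-1, TNF and NF-kappaB genes with and without sample 15.

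The acute-phase response is the rise of a group of secreted proteins during infection or injury, best known from the liver and also found in fat. Interleukin 1, tumour necrosis factor and bacterial products act through NF-kappaB to induce Il6 and Ptx3, while IL-6 binds its receptor and gp130, activates JAK kinases and STAT3, and thereby induces acute-phase genes and Socs3. The Socs3 protein then blocks gp130 and its kinases. Unlike the short pentraxins made by the liver, Ptx3 is a long pentraxin made locally by stromal, endothelial and myeloid cells, among others, and binds microbes, complement C1q and matrix proteins.

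The promoters of the secreted signal (Il6), the local pentraxin (Ptx3), the fat-expressed serum amyloid (Saa3) and the feedback inhibitor (Socs3) are shown because these genes had the widest differences from BAT together with Serpina3n. Each runs 5′ to 3′ from 250 bases before to 50 bases after the RefSeq start site in GRCm38.p6, a different build from the mm9 of the files. They lie at chr3:66219637-66219936 (plus strand) for Ptx3, chr5:30012864-30013163 (plus strand) for Il6, chr7:46715627-46715926 (minus strand) for Saa3 and chr11:117969317-117969616 (minus strand) for Socs3. Capitals mark matches, on either strand, to 4 motifs: STAT (TTCNNNGAA), C/EBP (TTNNGNAA), AP-1 (TGANTCA) and NF-kappaB.
Ptx3: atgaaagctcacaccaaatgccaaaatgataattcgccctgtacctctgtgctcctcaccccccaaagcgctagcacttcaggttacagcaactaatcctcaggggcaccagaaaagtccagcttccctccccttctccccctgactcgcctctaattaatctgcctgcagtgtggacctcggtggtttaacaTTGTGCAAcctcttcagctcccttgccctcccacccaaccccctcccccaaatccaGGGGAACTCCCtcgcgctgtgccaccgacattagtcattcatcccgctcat
Il6: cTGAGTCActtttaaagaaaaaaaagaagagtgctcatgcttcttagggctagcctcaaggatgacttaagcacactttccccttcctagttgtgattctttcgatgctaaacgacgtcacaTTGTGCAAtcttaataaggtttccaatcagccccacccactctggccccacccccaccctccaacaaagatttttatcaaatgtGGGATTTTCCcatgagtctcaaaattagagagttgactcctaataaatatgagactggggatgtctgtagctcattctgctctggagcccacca
Saa3: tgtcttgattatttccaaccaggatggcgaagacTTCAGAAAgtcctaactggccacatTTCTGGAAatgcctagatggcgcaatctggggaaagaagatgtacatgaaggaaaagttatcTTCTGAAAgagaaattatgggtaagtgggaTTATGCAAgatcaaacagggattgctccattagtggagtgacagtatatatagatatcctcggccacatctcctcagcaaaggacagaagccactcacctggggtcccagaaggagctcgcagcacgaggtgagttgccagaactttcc
Socs3: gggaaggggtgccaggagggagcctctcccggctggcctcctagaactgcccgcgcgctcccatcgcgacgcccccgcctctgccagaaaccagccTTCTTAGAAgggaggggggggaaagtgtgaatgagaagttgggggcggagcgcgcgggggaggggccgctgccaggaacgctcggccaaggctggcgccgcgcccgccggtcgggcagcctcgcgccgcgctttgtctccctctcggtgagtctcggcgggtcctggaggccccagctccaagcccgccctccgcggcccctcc
Of the 8 members with a promoter in the table (Hp and Orm1 have no entry), 7 held a C/EBP match, a motif found in 40.7% of 32851 mouse promoters of this length. An NF-kappaB match was found in Ptx3 and Il6 (4.51% of all promoters). In Il6 it lies at bases -44 to -35 from the start, and in Ptx3 a pair of overlapping matches, 1 on each strand, covers bases -1 to 10. Socs3 was the only member of the 8 with a STAT match, at -154 to -146 (8.3% of all promoters), and Il6 the only member with an AP-1 match, at -249 to -243 (7.81%). A match describes these letters only, and no binding was measured.

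The 10 genes differed widely in level (plot of the level of each gene). Hp was the most abundant member in every depot, at rank 21 of 31553 symbols with reads in iWAT, 26 of 33574 in eWAT and 88 of 32321 in BAT. Serpina3n (rank 117), Ptx3 (rank 129), Socs3 (rank 139) and Orm1 (rank 228) also belonged to the most abundant transcripts of iWAT. In BAT, their ranks were 9752, 18063, 13272 and 824. Saa1 and Saa2 were at the limit of detection in all depots.

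**Figure D1:**
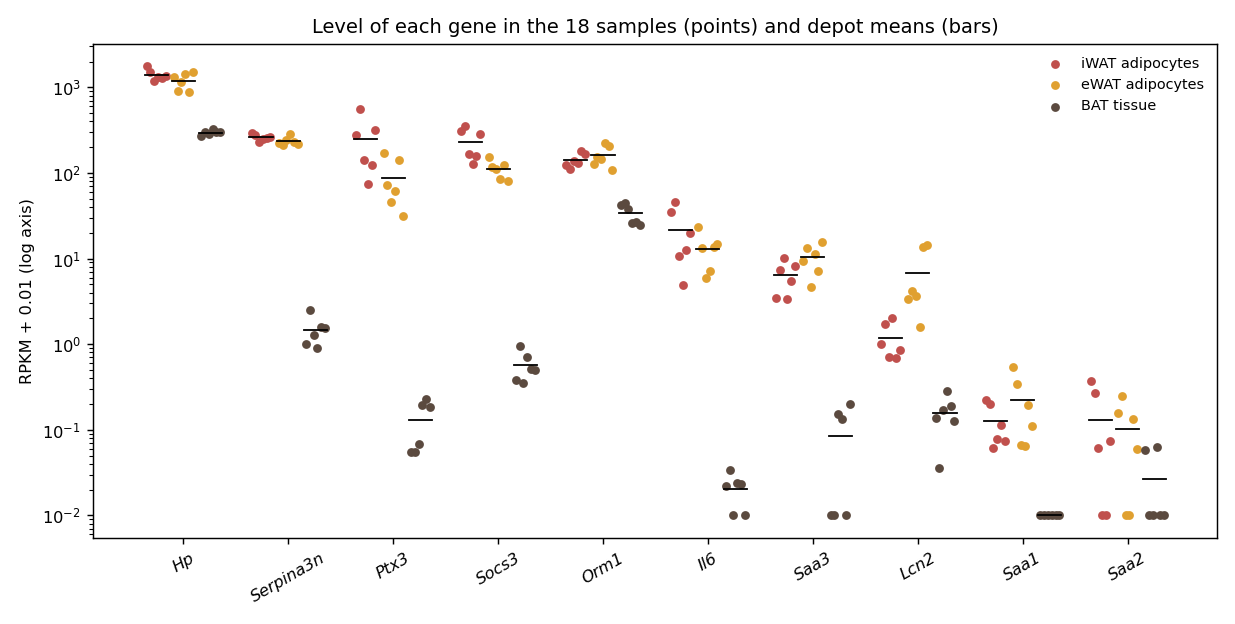
RPKM plus 0.01 (log axis) of the 10 genes in each of the 18 samples (points, coloured by depot), with the depot mean as a bar. For all genes but Saa2 the BAT points lie below all iWAT and eWAT points, and the iWAT and eWAT points of each gene overlap.

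Of the 8 members that passed the filter of at least 10 reads in at least 6 samples, 7 were tested, without Ptx3. Each of these 7 was higher in iWAT than in BAT (edgeR's quasi-likelihood test, adjusted p under 0.05), where 67.8% of all 19046 genes passed the test in either direction, 34.2% as higher and 33.6% as lower in iWAT. Each was also higher in eWAT than in BAT, where 70.3% of 18383 genes passed, 35.6% as higher and 34.7% as lower in eWAT. The RPKM ranges of these 7 genes did not overlap between either white depot and BAT, as was the case for 48.4% of the genes in iWAT against BAT and 61.8% in eWAT against BAT. The median log2 fold change of the 7 genes was 6.07 in iWAT and 6.72 in eWAT, against medians over all genes tested of 0.01 and 0.03. Both comparisons share the BAT samples. Il6 and Saa3 had fewer than 10 reads in every BAT sample, and Lcn2 in samples 7 and 13 of BAT, so that they passed the filter only with the white samples. A gene that passes in this way has to differ, and these counts and medians are therefore a description. Between iWAT and eWAT, 1 of the 7 passed the test, against 25.6% of all genes (13.4% higher and 12.3% lower in iWAT), and none had ranges that did not overlap, against 32.3%.

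**Figure D2:**
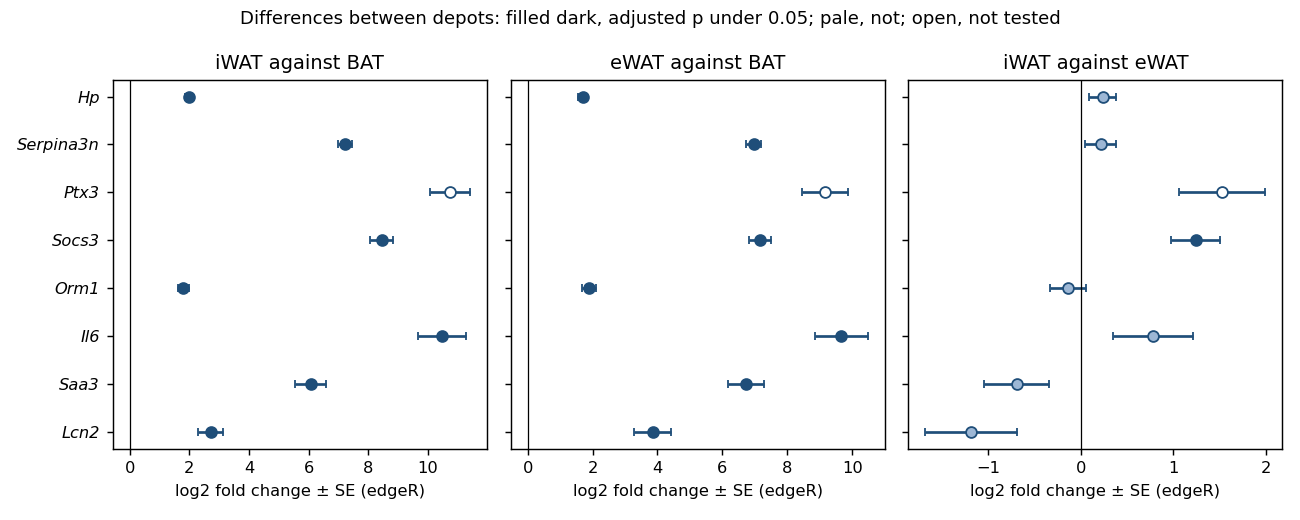
Log2 fold change of 8 members, with its SE as a bar, in iWAT against BAT, eWAT against BAT and iWAT against eWAT (edgeR). Dark points passed the test, pale points did not, and Ptx3 (open) was not tested. Each panel has its own axis: against BAT the values run from 1.69 for Hp to 10.74 for Ptx3, whereas between iWAT and eWAT they lie between -1.19 and 1.53.

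Ptx3 (gene ID 19288) has 3 exons at chromosome 3, 66023809 to 66029728, on the plus strand of mm9, and its row is the same in both kinds of file (1922 bp). Its RPKM in iWAT was 278 in sample 7, 558 in sample 11, 143 in sample 12, 73.6 in sample 13, 124 in sample 14 and 314 in sample 15. In eWAT, it was 171 in sample 7, 72.0 in sample 8, 45.6 in sample 11, 61.2 in sample 13, 142 in sample 14 and 31.4 in sample 15. The 6 BAT samples had 3 to 13 reads each, with an RPKM of 0.0452 to 0.218. The white and brown samples thus lay far apart, whereas the iWAT and eWAT samples overlapped and spread widely within each depot.

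The mean RPKM of Ptx3 (± SD, n = 6 per depot) was 0.122 ± 0.0801 in BAT, against 248.6 ± 178 in iWAT and 87.2 ± 56.1 in eWAT. The fitted log2 fold change was 10.74 (SE 0.67) in iWAT against BAT, 9.17 (SE 0.71) in eWAT against BAT and 1.53 (SE 0.47) in iWAT against eWAT. Summed over samples, 75191 reads in iWAT and 31159 in eWAT stood against 43 in BAT. After scaling to the read totals, the iWAT to BAT ratio of these reads was 2009 (95% exact binomial interval 1492 to 2777, counting error only). A single-exon antisense row with the symbol Ptx3 (66024208 to 66025340, minus strand) lies within the gene and had 566 to 3879 reads in iWAT samples and 0 to 5 in BAT samples. Counting is not stated to use strand, so reads of the gene and of this row cannot be told apart.

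Likeness was taken as the root mean square difference between profiles of log2(RPKM + 0.1) over the 18 samples, each gene centred on its own mean, so that it compares patterns and not levels. The 5 genes most like Ptx3 among 13870 were Socs3 (0.84), Fam110c (0.86) and the chemokine genes Cxcl1 (0.89), Ccl7 (0.93) and Ccl2 (1.01). Cxcl1, which encodes a neutrophil attractant, averaged an RPKM of 0.239 ± 0.128 in BAT (SD, n = 6 per depot), against 426 ± 156 in iWAT and 278 ± 96.7 in eWAT. Ccl7 and Ccl2, which encode monocyte attractants, were also the closest genes to Socs3 (0.36 and 0.47), and Ccl2 was the next closest gene to Il6 (0.54) after Tnfaip3 (0.50). The likeness rests mainly on the step between white and brown samples, which these genes share.

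Il6 (gene ID 16193; chromosome 5, 30339683 to 30346521, plus strand), the cytokine that gives the pathway its name, was barely detected in BAT, with 5 reads in 4 of the 6 samples. Its RPKM in iWAT was 35.03 in sample 7, 46.0 in sample 11, 10.8 in sample 12, 4.88 in sample 13, 12.5 in sample 14 and 19.9 in sample 15. In eWAT, it was 23.1 in sample 7, 13.1 in sample 8, 5.95 in sample 11, 7.13 in sample 13, 13.7 in sample 14 and 14.9 in sample 15. All white samples lay above all BAT samples, which reached at most 0.0243, and the iWAT and eWAT samples overlapped.

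The mean RPKM of Il6 (± SD, n = 6 per depot) was 0.0106 ± 0.00931 in BAT, against 21.5 ± 15.9 in iWAT and 12.97 ± 6.15 in eWAT. Il6 was higher in iWAT than in BAT by a log2 fold change of 10.47 (SE 0.81, edgeR adjusted p = 5.53e-08). It was higher in eWAT than in BAT by 9.66 (SE 0.81, edgeR adjusted p = 5.23e-09). Il6 passed the filter only with the white samples, so both values are a description. The difference between iWAT and eWAT, 0.78 (SE 0.43), did not pass the test (edgeR adjusted p = 0.197). With so few BAT reads the size is uncertain. The ratio of pooled reads was 1850.3 in iWAT against BAT (95% exact binomial interval 793 to 5700.0) and 1158 in eWAT against BAT (496 to 3567), for counting error only.

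Socs3 (gene ID 12702; chromosome 11, 117827393 to 117831361, minus strand), the feedback inhibitor of gp130 signalling, was the only 1 of the 7 tested members that passed the test between the white depots in the edgeR fit described. Ptx3, which was not tested, had a larger value, and other members passed under some alternatives. The RPKM of Socs3 in iWAT was 305 in sample 7, 352 in sample 11, 168 in sample 12, 126 in sample 13, 156 in sample 14 and 288 in sample 15. In eWAT, it was 153 in sample 7, 118 in sample 8, 111 in sample 11, 84.9 in sample 13, 124 in sample 14 and 81.4 in sample 15. Of the 6 iWAT samples, 5 lay above the highest eWAT sample, and the BAT samples lay between 0.341 and 0.951.

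The mean RPKM of Socs3 (± SD, n = 6 per depot) was 0.558 ± 0.231 in BAT, against 233 ± 93.8 in iWAT and 112 ± 26.7 in eWAT. The log2 fold change was 8.45 (SE 0.38, edgeR adjusted p = 2.79e-10) in iWAT against BAT and 7.16 (SE 0.35, edgeR adjusted p = 2.92e-12) in eWAT against BAT. In iWAT against eWAT it was 1.24 (SE 0.27, edgeR adjusted p = 0.00230). Socs3 passed this last test under each of the 30 alternatives run, with log2 fold changes of 0.98 to 1.68. The row of iWAT is longer (3071 bp) than the transcript row of eWAT (2732 bp), and an offset for row length was 1 of these alternatives.

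The level of immediate-early genes, which rise within minutes to hours of handling or digestion of tissue, separated white from brown samples as these members did. All 14 genes of that list were higher than in BAT in both iWAT and eWAT, as were 34.2% and 35.6% of all genes tested. Their summed RPKM was 45.7 to 276 in BAT, against 3403 to 4561 in iWAT and 2818 to 3615 in eWAT. The part of this in the results on Ptx3, Il6 and Socs3 was not tested, since preparation follows the depot. Within BAT, where all samples were frozen as tissue, sample 7 had the highest immediate-early sum (276) and the highest Socs3 (0.951) and Il6 (2 reads), and sample 11 had the second highest sum (246) and the second highest Socs3 (0.704). The highest Ptx3 value of BAT (0.218) was in sample 12, which had the lowest immediate-early sum (45.7). Within the white depots it was mixed. The samples highest for Ptx3, Il6 and Socs3, iWAT sample 11 and eWAT sample 7, had sums of only 3493 and 2994. The lowest sums were in iWAT sample 13 (3403), lowest for the same genes, and eWAT sample 15 (2818), lowest for Ptx3 and Socs3.

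Within the white depots, the 3 genes of this group varied by sample and not by the same amount (grid of RPKM by sample). In iWAT, sample 11 was the highest for Ptx3, Il6 and Socs3, and sample 13 was the lowest for all 3 and for Saa3. In eWAT, sample 7 was the highest for Ptx3, Il6 and Socs3. Across the 6 iWAT samples, Ptx3 differed 7.57-fold and Il6 9.44-fold between the lowest and the highest sample, against 2.80-fold for Socs3, 1.48-fold for Hp and 1.26-fold for Serpina3n. The iWAT samples 7 and 11, with the highest Il6, also had the highest macrophage sums of that depot (226 and 129, against 38.6 to 54.0) and the lowest adipocyte sums (10993 and 12308.5, against 15045.5 to 16764). The part of macrophages in the Il6 values was not tested. In eWAT, sample 15 had by far the highest macrophage sum and the lowest Ptx3 and Socs3.

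**Figure D3:**
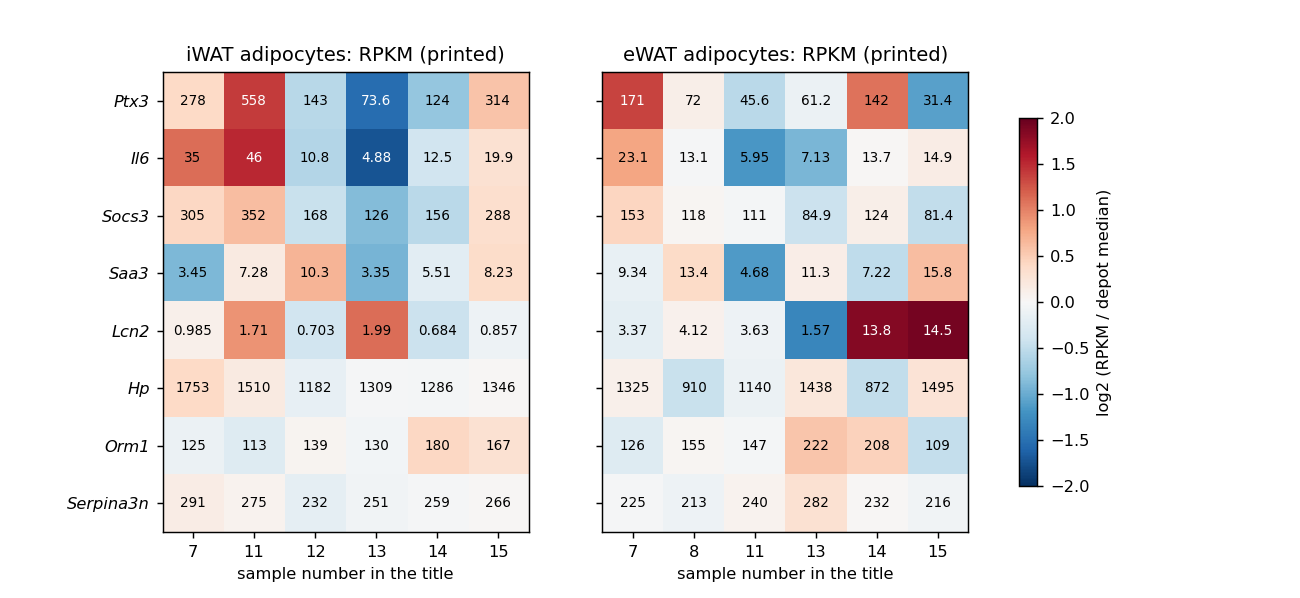
RPKM (printed) of 8 members in the 6 iWAT and the 6 eWAT samples, with colour for log2 of the RPKM over the median of the depot. Ptx3, Il6 and Socs3 are highest in iWAT sample 11 and eWAT sample 7, Lcn2 is highest in eWAT samples 14 and 15, and Serpina3n varies least.

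The serum amyloid A genes lie together on chromosome 7, and only Saa3 was well detected. Saa3 (gene ID 20210; 53967368 to 53971046, minus strand), known as the form made outside the liver by adipocytes and macrophages, had an RPKM of 3.35 to 10.3 in iWAT (median 6.40) and 4.68 to 15.8 in eWAT (median 10.3). In BAT, 3 samples had no read and the others had 2 or 3. The white samples all lay above the BAT samples, whose highest RPKM was 0.191, while those of iWAT and eWAT overlapped.

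Saa3 was higher in iWAT than in BAT by a log2 fold change of 6.07 (SE 0.53, edgeR adjusted p = 1.90e-07), and in eWAT than in BAT by 6.72 (SE 0.55, edgeR adjusted p = 3.33e-09). Since Saa3 passed the filter only with the white samples, both values are a description. In iWAT against eWAT the value was -0.70 (SE 0.35, edgeR adjusted p = 0.157). Saa3 has a single transcript and the same row in both kinds of file, but its direction between the white depots depended on the scaling. With all eWAT transcript rows of each gene summed, which leaves the reads of Saa3 as they are, it was 1.157 (edgeR adjusted p = 0.00956). Such sums can count a read on several transcript rows of other genes. In eWAT sample 7, all rows add up to 145725115 reads, against a read total of 33877564. The eWAT sample 15, highest for Saa3 (15.8), was also the sample with the highest macrophage sum, and eWAT sample 8, with a macrophage sum of 342, had a Saa3 RPKM of 13.4. In iWAT, sample 7 had the highest macrophage sum and a low Saa3 RPKM (3.45). The part of macrophages in Saa3 was not tested (plot of members beside marker lists).

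Saa1 (gene ID 20208; 53995868 to 53998350, minus strand) and Saa2 (gene ID 20209; 54007203 to 54009684, plus strand), the forms that the liver secretes, did not pass the filter on low counts. Saa1 had no read in BAT, 11 in all in iWAT and 25 in eWAT. Against a floor of 3 reads over the BAT group, it was at least 4.21-fold higher in iWAT and at least 8.34-fold higher in eWAT. Saa2 had 2 reads in BAT and 11 in either white depot, a ratio of pooled reads of 6.32 in iWAT against BAT (95% exact binomial interval 1.38 to 58.7) and 5.51 in eWAT against BAT (1.20 to 51.1). These intervals cover counting error only. Of the stretches of 50 bases in the Saa1 transcript, 10.8% also occur in another gene, mostly Saa2, so reads of the pair are uncertain.

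Of the 25 Saa1 reads in eWAT, 11 were in sample 7 and 7 in sample 8. The part of liver RNA in the Saa1 and Saa2 reads was not tested. The summed RPKM of 10 liver markers was 0.341 to 1.03 in BAT, against 10.7 to 13.9 in iWAT and 2.76 to 5.16 in eWAT. Most of the iWAT sum was Alb, the albumin gene, with a mean RPKM of 10.2 in iWAT and 2.45 in eWAT against 0.0250 in BAT. The 3 tested liver markers, among them Alb, were higher than in BAT in both white depots. Apoc3, not tested, had its highest mean in BAT (0.395, against 0.295 in iWAT and 0.220 in eWAT). Apoa1, Ttr, Ahsg and Apob averaged at most 0.0754 in any depot. The markers Fgb and Cyp3a11 were at 0 in all 18 samples.

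Lcn2 (gene ID 16819; chromosome 2, 32240153 to 32243317, minus strand), which encodes an iron-siderophore binding protein made by neutrophils, macrophages and adipocytes, had an RPKM of 0.684 to 1.99 in iWAT (median 0.921). In eWAT, it was 3.37 in sample 7, 4.12 in sample 8, 3.63 in sample 11, 1.57 in sample 13, 13.8 in sample 14 and 14.5 in sample 15. In BAT, it was 0.0254 to 0.270, from 62 reads in all. The 2 eWAT samples with the highest epididymis sums, 14 and 15, thus held the highest Lcn2 values of the series. The eWAT sample 13, with reads on 5 of the 7 epididymis markers and a sum of 3.66, had the lowest Lcn2 of that depot.

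Lcn2 was higher in iWAT than in BAT by a log2 fold change of 2.71 (SE 0.41, edgeR adjusted p = 4.91e-05). In eWAT it was higher than in BAT by 3.85 (SE 0.58, edgeR adjusted p = 1.04e-05), and by 2.72 without eWAT samples 14 and 15 (edgeR adjusted p = 2.98e-05). Lcn2 also passed the filter only with the white samples, so these values against BAT are a description. The value in iWAT against eWAT was -1.19 (SE 0.50, edgeR adjusted p = 0.0871), and -0.05 without the same 2 samples (edgeR adjusted p = 0.945). Without eWAT sample 13, which had the lowest Lcn2 of that depot, it was -1.39 and passed the test (edgeR adjusted p = 0.0357). The part of epididymal RNA in Lcn2 was not tested. RPKM overstates this difference relative to reads. The merged row of iWAT is 2302 bp long and the eWAT transcript 884 bp, so that the iWAT to eWAT ratio was 0.169 for mean RPKM and 0.433 for reads scaled to the totals. The summed RPKM of 11 neutrophil markers followed the same order of depots as Lcn2, at 0.562 to 1.91 in BAT, 2.49 to 5.85 in iWAT and 5.19 to 13.97 in eWAT. Within depots it was mixed. The highest sum was in eWAT sample 15, but eWAT sample 14 had 5.68, and eWAT sample 13, lowest for Lcn2, had 11.96. In iWAT, the highest sum (5.85) was in sample 14, which had the lowest Lcn2. Of the 3 tested, 1 was higher than in BAT in iWAT and 2 in eWAT, and S100a8 was so in both (2.79 and 3.63). S100a8 made up most of the sum in the white depots, with a mean RPKM of 3.50 in iWAT and 6.55 in eWAT, against 0.416 in BAT. S100a9, Cxcr2, Retnlg and Ly6g had their highest mean RPKM in BAT, at most 0.293, and the other listed markers in eWAT. Ly6g had 1 read in BAT and was at 0 in iWAT and eWAT. The part of neutrophils in Lcn2 was not tested.

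**Figure D4:**
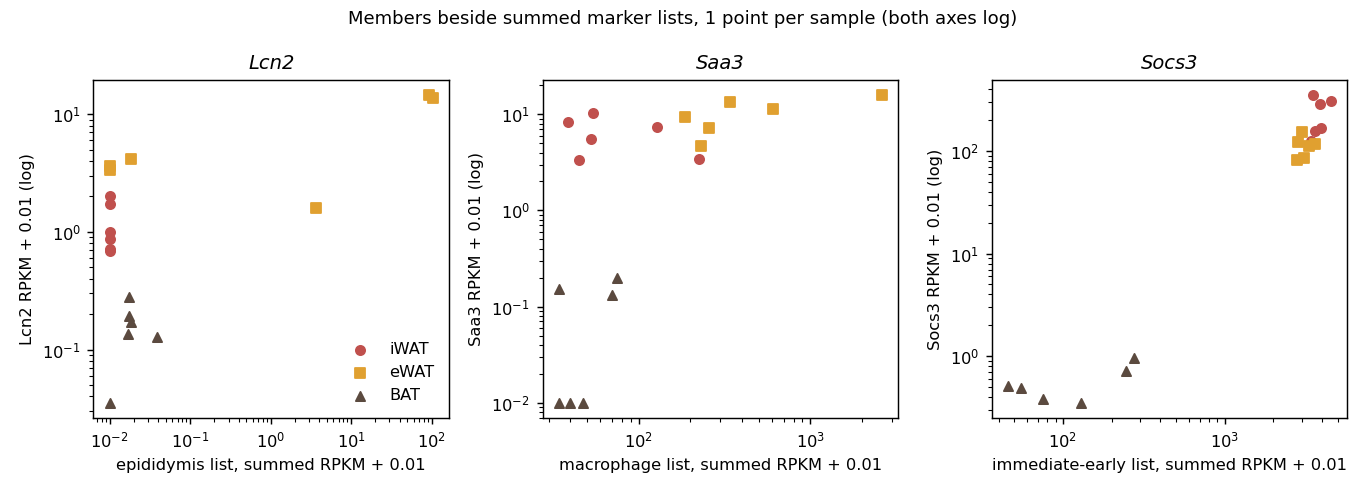
RPKM plus 0.01 of Lcn2, Saa3 and Socs3 against the summed RPKM plus 0.01 of the epididymis, macrophage and immediate-early lists, with 1 point per sample and log axes. The 2 eWAT samples with the highest epididymis sums (92.9 and 104) have the highest Lcn2, the eWAT sample with a macrophage sum of 2618 has the highest Saa3, and white and BAT samples form separate groups for Socs3.

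Hp (gene ID 15439; chromosome 8, 112099028 to 112103072, minus strand), whose product binds free haemoglobin, had an RPKM of 1182 to 1753 in iWAT (median 1328), 872 to 1495 in eWAT (median 1233) and, in BAT, 271 to 326 (median 298). Orm1 (gene ID 18405; chromosome 4, 63005591 to 63009197, plus strand), which encodes a plasma carrier protein of the lipocalin family, had an RPKM of 113 to 179.9 in iWAT (median 135), 109 to 222 in eWAT (median 151) and 24.4 to 44.7 in BAT (median 32.5). Both were well expressed in all 3 depots, with the BAT samples below all white samples.

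Hp was higher than in BAT by a log2 fold change of 1.98 (SE 0.11, edgeR adjusted p = 2.69e-09) in iWAT and 1.69 (SE 0.15, edgeR adjusted p = 1.01e-08) in eWAT. Orm1 was higher by 1.80 (SE 0.19, edgeR adjusted p = 1.12e-06) in iWAT and 1.89 (SE 0.20, edgeR adjusted p = 1.41e-07) in eWAT. These were the smallest differences from BAT among the 7 genes tested. Between iWAT and eWAT, neither Hp (0.24, SE 0.15, edgeR adjusted p = 0.247) nor Orm1 (-0.14, SE 0.20, edgeR adjusted p = 0.644) passed the test. With all eWAT transcript rows summed, both passed it as higher in iWAT, Hp at 1.09 (edgeR adjusted p = 2.58e-06) and Orm1, with a turned sign, at 1.11 (edgeR adjusted p = 8.34e-05). As said for Saa3, summed rows can count a read more than once. Of the stretches of 50 bases in the Orm1 transcript, 20.4% are shared with Orm2, so a part of its reads is uncertain.

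Serpina3n (gene ID 20716; chromosome 12, 105644918 to 105652539, plus strand), a secreted inhibitor of proteases such as granzyme B, was the member with the most even values within each white depot. Its RPKM was 232 to 291 in iWAT (median 262), 213 to 282 in eWAT (median 228) and 0.889 to 2.47 in BAT (median 1.40). It was higher than in BAT by a log2 fold change of 7.22 (SE 0.25, edgeR adjusted p = 3.30e-11) in iWAT and 6.96 (SE 0.22, edgeR adjusted p = 1.58e-14) in eWAT. Its difference between the white depots was 0.21 (SE 0.17, edgeR adjusted p = 0.385). With eWAT rows summed, which can count a read more than once, it was 1.66 (edgeR adjusted p = 1.33e-07). The coefficient of variation was 7.73% in iWAT and 10.8% in eWAT, against 71.5% and 64.4% for Ptx3. This spread was the smallest of the 10 genes in both white depots. Of its stretches of 50 bases, 6.75% occur in another gene, mostly in the Serpina3 family.

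Most other acute-phase genes that were tested moved the same way. Of 20 tested genes of a list of 36 acute-phase proteins outside the set, 19 were higher in iWAT than in BAT and 1 was lower, with a median log2 fold change of 5.00. In eWAT against BAT, 24 of 25 were higher and none lower (median 4.87). Many of the genes tested are Serpina3 relatives of the member Serpina3n, so they are not independent of it or of each other. Crp, Apcs, Fga, Fgb, Fgg, Hamp and A2m averaged an RPKM of at most 0.0257 in any depot and were not tested. Over all genes tested, 34.2% were higher and 33.6% lower in iWAT than in BAT, and 35.6% and 34.7% in eWAT. These shares are the background of each list below too. Some listed genes, such as Serpina3j and Serpina3m with 2 BAT reads each, passed the filter only with the white samples and had to differ. Some lists below hold such genes as well, so these counts and medians are a description. Cfb, complement factor B, rose by 5.77 in iWAT and 5.37 in eWAT, and the complement gene C4b by 6.54 and 5.88, although C4b has a near-identical row, LOC675521, that makes its reads uncertain. The gene that was lower in iWAT was Orm3 (-1.05, edgeR adjusted p = 0.00714), a paralog of Orm1, named here after its value was seen. Orm2 reached a mean RPKM of only 2.09 in eWAT, 0.494 in iWAT and 0.180 in BAT, and Saa4 had 2 reads in iWAT, 10 in eWAT and none in BAT.

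**Figure D5:**
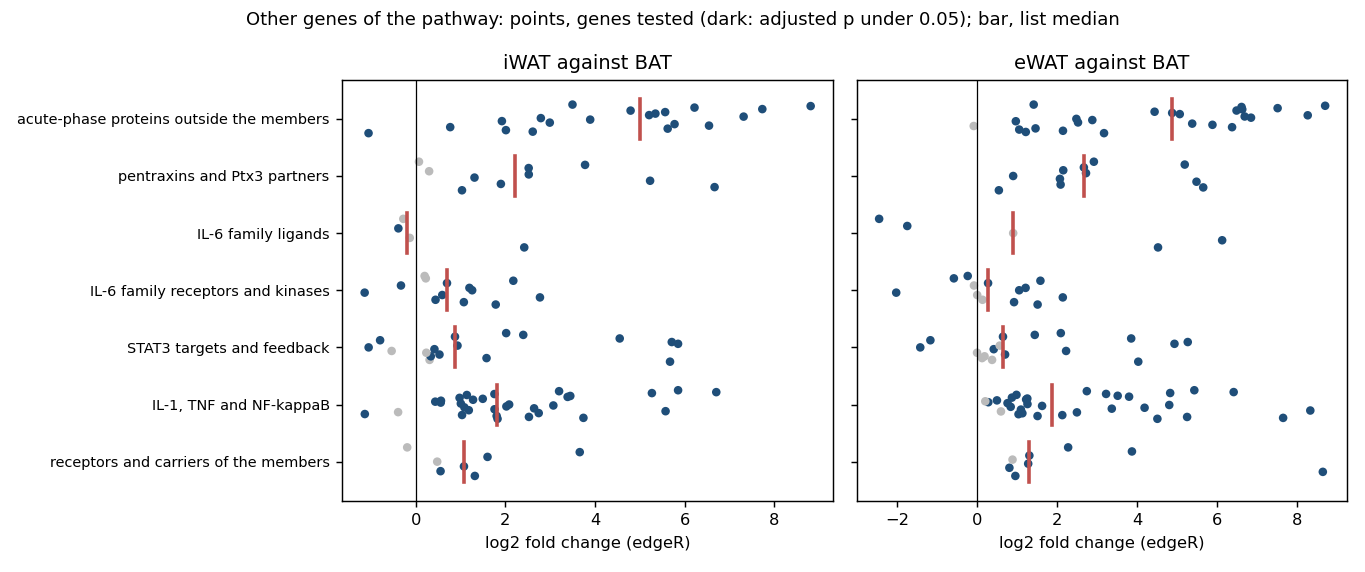
Log2 fold change (edgeR) of the genes tested in 7 lists around the members, in iWAT against BAT and eWAT against BAT; points are genes (dark where the test was passed) and bars list medians. The acute-phase list has medians of 5.00 and 4.87 and almost all its points to the right of 0, whereas the IL-6 family ligands lie on both sides.

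Of 18 pentraxins and Ptx3 partners, 10 were tested in iWAT against BAT, of which 8 were higher and 2 did not pass the test (C1qa and Fcgr3). In eWAT against BAT, 11 of 11 tested were higher. None was lower in either comparison. Tnfaip6, whose product TSG-6 assembles the hyaluronan matrix together with Ptx3, averaged an RPKM of 0.136 ± 0.0600 in BAT (SD, n = 6 per depot), against 16.8 ± 14.2 in iWAT and 10.0 ± 4.65 in eWAT (log2 fold change 6.67 in iWAT and 5.65 in eWAT). Itih5, of the family of hyaluronan-bound heavy chains, was already expressed in BAT (mean RPKM 11.8) and rose by 1.90 in iWAT and 2.08 in eWAT. The list also holds C1qa, a macrophage marker.

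The other ligands of the IL-6 family were mixed in direction. Of 4 tested in iWAT against BAT, 1 was higher and 1 lower, and of 5 tested in eWAT against BAT, 2 were higher and 2 lower. The higher ones were Lif in both depots (2.42 in iWAT and 4.52 in eWAT) and Osm in eWAT (6.12), and the lower ones were Ctf1 in both (-0.38 and -1.75) and Cntf in eWAT (-2.45). The value for Cntf depends on the row, and was -0.76 with the row length as an offset. These 4 genes were named after their values were seen. Mean RPKM of Lif and Osm was at most 1.35 in any depot.

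The receptors and kinases through which IL-6 acts showed smaller differences. Of 13 genes, 9 were higher and 2 lower in iWAT than in BAT (median 0.70), and 7 were higher and 3 lower in eWAT (median 0.27). The eWAT count and median depend on the rows, since 10 were higher and 1 lower with the row length as an offset (median 1.15). Of the 3 lower genes, Stat5b (-0.24) was then higher (0.90) and Stat5a (-0.58) no longer passed the test (0.29, edgeR adjusted p = 0.141). The receptor gene Il6ra averaged an RPKM of 1.42 ± 0.368 in BAT (SD, n = 6 per depot), against 5.91 ± 1.93 in iWAT and 5.10 ± 1.40 in eWAT, with log2 fold changes of 1.79 and 1.51. Il6st, which encodes gp130, rose by 1.08 and 0.92, and Jak1 by 1.26 and 1.05. The transcription factor gene Stat3 rose by 2.18 and 1.58, and Osmr, the oncostatin M receptor gene, by 2.77 and 2.14. These values stood below the log2 fold changes of Il6 and Socs3, which were 7.16 or more in both comparisons. Those of eWAT depend on the row. By mean RPKM, Jak1 was at 30.9 and Stat3 at 32.9 in eWAT, against 6.09 and 3.11 in BAT, a wider difference than in the fit.

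Among STAT3 targets and feedback genes, 12 of 17 were higher and 2 lower in iWAT than in BAT, and 10 were higher and 2 lower in eWAT (13 and 1 with the row length as an offset). Socs1, the closest relative of Socs3 in function, averaged an RPKM of 0.0886 ± 0.0174 in BAT (SD, n = 6 per depot), against 5.46 ± 2.99 in iWAT and 1.90 ± 0.514 in eWAT. Its log2 fold change was 5.67 in iWAT against BAT, 4.02 in eWAT against BAT and 1.61 in iWAT against eWAT (edgeR adjusted p = 0.000841 for the last). Myc and Junb rose by 5.85 and 5.71 in iWAT and by 4.93 and 5.26 in eWAT, and Junb is also an immediate-early gene. Of the C/EBP factor genes, Cebpd rose by 4.55 in iWAT and 3.85 in eWAT. Cebpb was lower, by -0.79 in iWAT (edgeR adjusted p = 0.000472) and -1.17 in eWAT (edgeR adjusted p = 3.41e-05), with a mean RPKM of 58.0 in BAT against 40.1 in iWAT and 31.9 in eWAT. The other lower gene was Pim1, at -1.05 in iWAT and -1.42 in eWAT, named after its values were seen.

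In the list of IL-1, TNF and NF-kappaB genes, 29 of 31 were higher and 1 lower in iWAT than in BAT, and 30 of 32 were higher and none lower in eWAT. Over all genes, 34.2% were higher in iWAT and 35.6% in eWAT. Tnfaip3, a feedback inhibitor of NF-kappaB, rose by 6.70 in iWAT and 6.41 in eWAT. Zfp36, whose product destabilises cytokine mRNAs and which is also an immediate-early gene, rose by 5.85 and 5.42. Nfkbiz, which encodes an inhibitor-like cofactor needed for Il6 and Lcn2 induction, rose by 5.27 and 4.82, and the inhibitor gene Nfkbia by 3.45 and 3.51. Between the white depots, 9 of these 32 genes were lower in iWAT than in eWAT and 1 was higher, where 12.3% of all genes were lower and 13.4% higher. The share called in either direction was thus near that of all genes (25.6%). Without eWAT sample 15, 4 were lower and 3 higher, and with the row length as an offset 16 were lower and 1 higher. The 9 hold the macrophage marker Cd14 and the cytokine genes Il1b, Tnf and Il1a, chosen after their values were seen. Without eWAT sample 15, the log2 fold change of Il1b went from -3.94 to -2.69, that of Tnf from -2.79 to -1.95 and that of Il1a from -2.72 to -2.28, and each still passed the test. The macrophage sum was 187 to 2618 in eWAT against 38.6 to 226 in iWAT. The part of macrophages in these values was not tested.

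Receptors and carriers of the members' products were higher in 5 of 7 tested genes in iWAT and in 7 of 8 in eWAT, with none lower than in BAT. Hmox1, the haem oxygenase that degrades the haem cleared with haptoglobin, rose by 3.66 in iWAT and 3.87 in eWAT. Lrp1, which clears complexes of proteases and serpins, rose by 1.60 and 1.302, and Cd36, a scavenger receptor that binds serum amyloid A, by 1.08 and 1.27. Slc22a17, a receptor of lipocalin 2, rose by 1.32 and 0.95, with a mean RPKM of 1.48 in BAT against 4.42 in iWAT and 3.63 in eWAT.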

How the data were processed

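RNA-seq libraries had been prepared by the authors with the NEBNext Ultra RNA kit from RNA with a high integrity number and sequenced on a HiSeq instrument, without molecular identifiers. The submitters' processing notes name cutadapt (version 1.16) and HISAT2 (version 2.1.0), and the paper names the Genomatix Genome Analyzer with mm9. The annotation release, the counting mode and the use of strand are not given in the sources used here.

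Raw read counts per row were deposited by the authors for every sample. Beside them the authors deposited RPKM values, each equal to the count over the row's length and the sample's total of reads. iWAT and BAT rows are merged genes and eWAT rows are transcripts. The merged row and the most-read transcript row of each symbol were used, and 5 of the 10 members have the same row in both kinds of file. Levels are RPKM.

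Depots were compared with edgeR (version 4.0.16; glmQLFit, glmQLFTest, TMM) in R (version 4.3.3) on genes that reached 10 reads in 6 or more samples, with the totals behind the RPKM as library size. The fit for iWAT against BAT used 12 samples, and the other comparisons used all 18. A Benjamini-Hochberg adjusted p under 0.05 over all genes was the threshold, the paper naming no test for these data. The SE is the fold change over the square root of F. On simulated counts for iWAT against BAT (19046 genes), 103 of 106 genes changed by a log2 of 2, 74 of 94 changed by 1 and 13 of 18846 unchanged genes were called. For iWAT against eWAT, these were 95 of 101, 69 of 99 and 9 of 18183. The simulation changed few genes, in both directions, and held no difference in the kind of row. In the data, 67.8% of genes were called in iWAT against BAT. It thus cannot gauge errors under so wide a difference.

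The members, the lists and their tests were chosen with earlier results of these data known. Named were all members, genes always named from the lists, and in each list up to 3 with the largest change in iWAT against BAT among genes whose mean RPKM reached 5. A gene that this rule names is left out here. Likeness was computed over genes whose mean reached 1 in any depot. Alternatives were limma (version 3.58.1) on log2 RPKM, DESeq2 (version 1.42.0), other filters, scalings and rows, a replicate block and leaving out samples. Same-numbered samples did not deviate together (correlations of -0.316 to 0.113 over 13 pairs in 3 comparisons), so the numbers were not taken as pairs. Promoters are from RefSeq (GRCm38.p6), and shared 50-base stretches were counted in GENCODE transcripts of mm9.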

Additional observations from a re-analysis of the deposited data

Results flagged for a closer look

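No level of a member stood apart in its depot by Dixon's test at the 95% level. Among the 70 depot groups of member levels, marker sums and read totals that were tested, 5 marker sums did, where chance gives about 1 in 20. The macrophage sum was 2618 in eWAT sample 15, against 186.8 to 607.9 in the other eWAT samples. The lymphocyte sum was 1.904 in iWAT sample 11, the sample with the highest Ptx3, Il6 and Socs3 of that depot, against 0.2113 to 0.4752 in the others. The endothelial sum was 331.9 in iWAT sample 14 (60.29 to 147.4 in the others), and the skeletal muscle sum was 1392 in BAT sample 12 (0.5787 to 124.2 in the others), the BAT sample with the highest Ptx3. The epididymis sum was 0.02836 in BAT sample 13, from 1 read of Rnase9, against 0 to 0.00864 in the others.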

How the results depend on the processing

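Against BAT, the 7 tested members were higher and past the threshold in every alternative that gave a value. For Il6, Saa3 and Lcn2, which passed the filter only with the white samples, this is a description. The number of genes called in iWAT against BAT was 12915, and 12423 to 13192 when single samples were left out. In eWAT against BAT it was 12916 (12460 to 13070 without single samples) and 3828 of 5637 with shared rows only, where fewer genes were tested. In iWAT against eWAT it was 4714 (3894 to 5171 without single samples), but 9625 and 9479 with limma on log2(RPKM + 0.1) and log2(RPKM + 1), 9644 with the row length as an offset, 13584 with eWAT rows summed and 726 of 5637 with shared rows only. The RPKM scale moved the median log2 difference of all genes to 0.243, 0.71 and -0.34 (pseudocount 0.1), and the share of calls that were higher in the first depot from 50.4%, 50.6% and 52.2% to 65.4%, 77.8% and 10.3%. With the length offset, this share was 69.2% in eWAT against BAT and 10.7% in iWAT against eWAT. Changes are given on the TMM scale. Summed eWAT rows can count a read on several transcript rows. Between iWAT and eWAT, summed rows turned the sign of Saa3 (1.157) and Orm1 (1.11) and put Hp (1.09) and Serpina3n (1.66) past the threshold. Lcn2 passed it, as lower in iWAT, with limma (-2.15 and -1.58), the length offset (-2.56), summed rows (-1.98) and without eWAT sample 13 (-1.39, adjusted p = 0.0357). Saa3 did with the larger pseudocount (-0.62, adjusted p = 0.0462). The cause was not tested. With the sample number as a replicate block, 11338, 11406 and 3152 genes were called, and no call of a member changed. The alternatives without eWAT samples 14 and 15 together (12402 and 3605 genes called) and with only the compared depots, and those of the gene lists, were added after the data were seen, and of the members only Lcn2 moved by over 1.5 times in the first. Depth limited Saa1, Saa2 and Il6 in BAT.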
